A study of Mus musculus with 6 samples.

Results

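The enzymes that build mucin-type O-glycans were followed here as 39 genes, out of 19949 genes measured, in colons of mice given dextran sulfate sodium (DSS), a polymer that injures the colonic epithelium. The 39 were taken by name as the glycosyltransferases and sulfotransferases of the pathway, and were divided by the reaction each catalyses. There were 10 genes of initiation, 6 of core formation, 6 of chain extension and 17 of capping. Capping was divided further into 4 fucosyltransferases, 9 sialyltransferases, 2 sulfotransferases and 2 enzymes that add a terminal N-acetylgalactosamine.

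RNA from colon of BALB/c mice aged 6 to 8 weeks was sequenced, with 3 libraries from STAT6-/- mice and 3 from wild-type (WT) mice. Both genotypes had taken 3% DSS freely for 3 days, so no group without DSS enters any comparison. STAT6 is the transcription factor that carries interleukin-4 and interleukin-13 signals into the nucleus, and the labels name neither the targeted exons nor the origin of the mutant line. Per the labels' protocols, the luminal side was scraped to take off content and mucus before the tissue was cut and extracted. Whether replicates are separate animals is not stated, so p-values measure the spread between these samples, which may be technical.

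A mucin-type glycan starts in the Golgi when a GALNT enzyme puts N-acetylgalactosamine on a serine or threonine. Core enzymes add the next sugars, extension enzymes lengthen the chain, and fucose, sialic acid, sulfate or a further N-acetylgalactosamine ends it. In the colon these chains make up most of the mass of the secreted mucin MUC2 and cover the membrane mucins of the epithelial surface. Bacteria bind and feed on the terminal sugars.

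Libraries held 17122315 to 19555450 expected counts (estimated reads per gene). Stat6 stood at 49.9, 38.5 and 53.2 CPM in STAT6-/- replicates 1 to 3 and at 91.7, 104.0 and 88.8 CPM in WT, where CPM is the count scaled to library size with TMM factors. All 3 STAT6-/- libraries thus lay below WT, and Stat6 RNA was reduced, not absent. The sexes of the groups differed: Xist was at 352 to 545 CPM in WT and below 1 CPM in STAT6-/-, and the Y-linked Ddx3y was at 50.9 to 59.5 CPM in STAT6-/- and at 0.0567 to 0.124 CPM in WT. Genotype and sex therefore cannot be told apart in any result below. STAT6-/- replicate 2 was the STAT6-/- library closest to WT over all genes, with Spearman correlations of 0.929 to 0.953 against WT. STAT6-/- replicate 1 stood farthest apart in the Hoxd genes of the hind gut, with Hoxd13 at 4.48 CPM against 185 and 146 CPM in replicates 2 and 3 and 206 to 278 CPM in WT. Of 6 posterior Hox genes tested, 5 had a log2 fold change below 0. In 3 of the 6 every STAT6-/- library lay below every WT library, beside 24.5% of all genes, and 0 passed the test given below.

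Among the members that passed the test, the largest rises were in capping (Fut2 and Chst4) and in extension (B3gnt3 and B3galt5). The core gene Gcnt4 and the capping gene St3gal1 had log2 fold changes of 2.82 and 1.55 but did not pass. Of the 37 members tested, 9 rose in STAT6-/- colon and 1 fell (quasi-likelihood test of edgeR over 15066 genes, p below 0.05 after Benjamini-Hochberg adjustment). That is 27.0% of the members, against 22.9% of all genes tested, so the share called is near the background. By direction the background was 11.4% of genes higher and 11.5% lower. The median log2 fold change was 0.34 over the tested members and 0.01 over all genes, and 25 members lay above 0 and 12 below. The libraries of the genotypes did not overlap for 15 members, 11 of them higher in STAT6-/- and 4 lower, against 22% and 24.5% of all genes. By step, 3 of 10 initiation genes rose (Galnt3, Galnt10 and Galnt12), 0 of 5 tested core genes changed by edgeR, and 2 of 6 extension genes rose (B3gnt3 and B3galt5). Of 16 tested capping genes, 4 rose (Fut2, Chst4, St6galnac4 and St6galnac6) and St3gal6 fell. Among the 5 tested core genes 3 had an unadjusted edgeR p under 0.05, as had 6067 of all 15066 genes, and DESeq2 called Gcnt4. With edgeR no member passed without WT replicate 2 or without WT replicate 3, when 0.2% and 0.117% of all genes passed. In each of those fits 12 of 38 members had an unadjusted p under 0.05, beside 4370 of 15497 and 4285 of 15395 genes. There 9 and 8 members had an adjusted p under 0.1, a limit not counted over all genes. Without STAT6-/- replicate 2 the count was 14 higher and 4 lower of 37 members, beside 2750 and 2440 of 15324 genes. Without WT replicate 1 it was 6 and 1 of 38, beside 656 and 751 of 15432 genes.

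**Figure D1:**
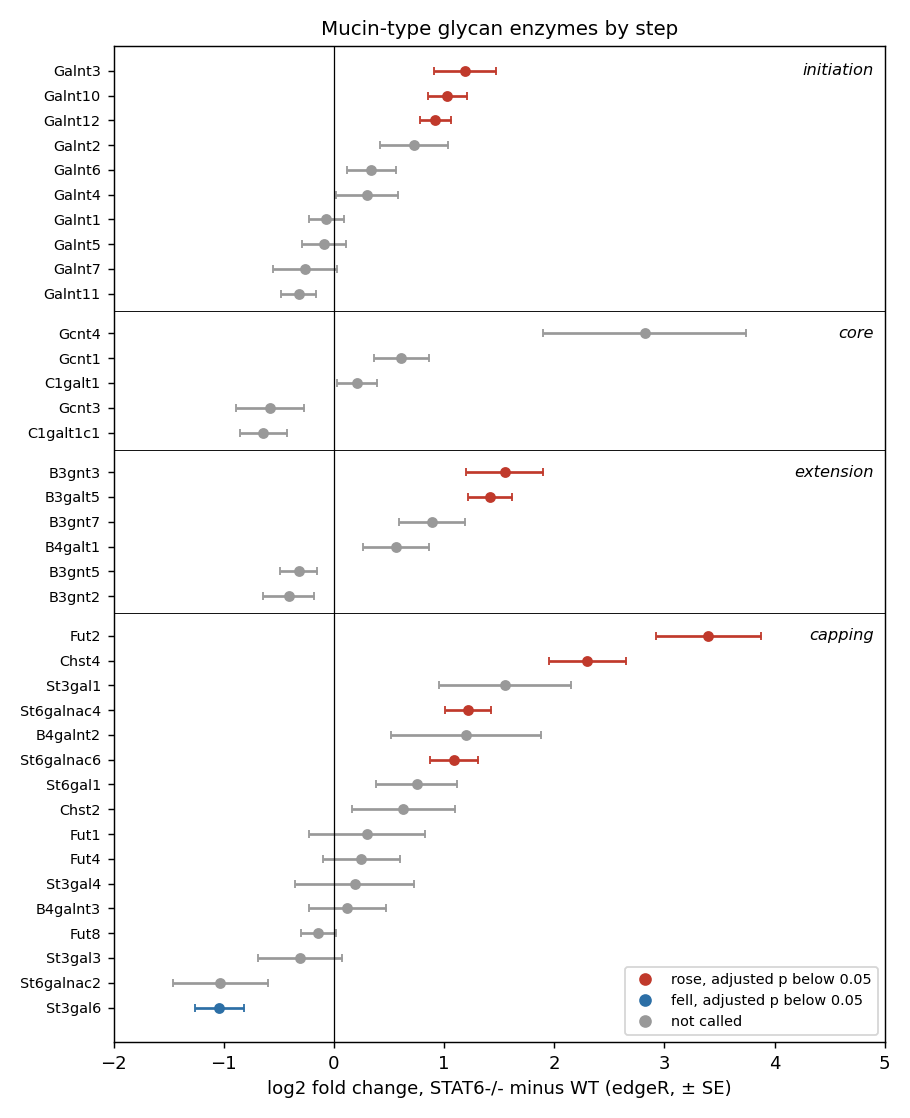
Log2 fold change (STAT6-/- minus WT) with its standard error for the 37 tested members, ordered within each step; the colour gives the edgeR call. Fut2 lies farthest to the right at 3.40 and St3gal6 and St6galnac2 farthest to the left at -1.04 and -1.03, while the core genes are all grey.

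The tissue pieces also differed in their make-up, and fewer cells of a type cannot be told apart from less RNA per cell in whole tissue. All 6 smooth muscle markers (Myh11, Acta2, Tagln, Des, Cnn1 and Actg2) were lower on average in STAT6-/-, 5 of them called, and their summed level was 2276 to 5151 CPM against 8692 to 10731 CPM in WT. Of 14 colonocyte markers 4 rose and 1 fell, with sums of 17570 to 22565 CPM against 15320 to 20874 CPM. Among them the epithelial adhesion gene Epcam did not pass (log2 fold change 0.07), while the microvillus gene Vil1 rose (1.19). The 14 goblet cell markers summed to 8578, 22562 and 7964 CPM in STAT6-/- replicates 1 to 3 and to 21234 to 22738 CPM in WT. In that list Creb3l1 rose and Clca1 fell, so goblet markers did not move as 1 block. All 6 endothelial markers had a log2 fold change above 0, 2 of them called (Vwf and Plvap), with sums of 82.3 to 198 CPM against 41.2 to 62.1 CPM in WT. The 6 neutrophil markers were all above 0 too, 1 of them called (Retnlg), with sums of 457 to 1397 CPM against 280 to 395 CPM. All 7 macrophage, 7 T cell and 6 B cell markers lay above 0, with 0, 2 and 0 called by edgeR and 3, 5 and 1 at an unadjusted p under 0.05. Over all genes 6067 of 15066 had such a p. The sums of these 3 lists were highest in STAT6-/- replicate 1 or 3. In replicate 2 they were below all WT libraries (173, 17.8 and 25.1 CPM, against 179 to 261, 19.4 to 22.5 and 32.6 to 52.1 CPM in WT). In further lists Mki67 and Top2a of 6 tested stem and crypt markers, Mzb1 and Derl3 of 5 plasma cell markers and Gcg of 6 enteroendocrine markers rose. Of 6 fibroblast markers 5 lay below 0 and Lum fell, and 0 of 3 tested tuft markers were called. Over all genes 22.9% were called. The part of all these differences in the results was not tested, apart from the ratios given further on.

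Promoter sequence was read for 28 of the 39 members, in windows from 250 bases before to 50 after each start in RefSeq's GRCm38.p6 annotation. Both strands were searched for 3 short motifs. The STAT6 motif, TTC and GAA with any 4 bases between them, was in 1 of 41 member windows and in 6.95% of all 32851 windows. The motif of other STAT proteins, TTC and GAA with any 3 bases between them, was in 3 member windows and in 8.3% of all. The interferon motif, GAAA and GAAA with any 2 bases between them, was in 0 member windows and in 3.44% of all. Of the called members with a window, B3galt5 alone had a match. The called members Fut2 and Galnt12 had no window, so their promoters were not read. B3galt5 and Gcnt1 had 3 windows each, and in both genes 1 of the 3 had a match. Their other windows had 0 for every motif. B4galt1 and Gcnt4, which were not called, also held the motif with 3 bases between its ends. The matching windows of B3galt5 and Gcnt1 are shown, B3galt5 as a gene that rose and Gcnt1 as the single member with the STAT6 motif. Beside them is the window of Chst4, which rose and had no match. Which start the colon uses was not tested. Capitals mark the matches.
B3galt5 (chr16:96235551-96235850, + strand): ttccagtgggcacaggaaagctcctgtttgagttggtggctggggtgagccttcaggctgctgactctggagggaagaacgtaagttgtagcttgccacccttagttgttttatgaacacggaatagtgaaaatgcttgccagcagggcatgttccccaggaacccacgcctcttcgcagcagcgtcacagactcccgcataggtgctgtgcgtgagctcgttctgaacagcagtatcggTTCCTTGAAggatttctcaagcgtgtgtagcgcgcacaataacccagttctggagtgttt
Chst4 (chr8:110039285-110039584, - strand): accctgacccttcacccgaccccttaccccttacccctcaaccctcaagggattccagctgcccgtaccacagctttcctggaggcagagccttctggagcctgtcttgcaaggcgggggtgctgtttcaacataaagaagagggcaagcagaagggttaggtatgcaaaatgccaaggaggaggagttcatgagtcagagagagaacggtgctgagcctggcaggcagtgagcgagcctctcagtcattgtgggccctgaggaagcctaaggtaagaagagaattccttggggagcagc
Gcnt1 (chr19:17356618-17356917, - strand): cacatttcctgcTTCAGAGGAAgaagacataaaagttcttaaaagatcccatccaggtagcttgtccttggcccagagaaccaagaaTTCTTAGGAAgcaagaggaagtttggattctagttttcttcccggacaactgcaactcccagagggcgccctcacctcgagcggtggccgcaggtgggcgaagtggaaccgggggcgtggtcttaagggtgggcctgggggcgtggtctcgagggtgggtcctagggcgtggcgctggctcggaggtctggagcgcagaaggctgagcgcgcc
The B3galt5 match, with 3 bases between its ends, starts 10 bases before the annotated start, and the 2 matches in Gcnt1, with 4, start 238 and 163 bases before it. A match describes letters and is not shown to be a site, and Gcnt1 was not called.

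Fut2 had the largest difference of any member. FUT2 is the secretor enzyme, which puts fucose on terminal galactose to make the H antigen of mucus. Fut2 (chromosome 7, 45648591 to 45666394, mm10) stood at 919, 380 and 366 CPM in STAT6-/- replicates 1 to 3 and at 69.9, 54.7 and 32.8 CPM in WT. The lowest STAT6-/- library was thus several times above the highest WT library, and STAT6-/- replicate 1 stood far above the other two. Fut2 rose 10.6-fold, with a log2 fold change of 3.40 ± 0.48 (SE, edgeR adjusted p = 0.011). With STAT6-/- replicate 1, the library lowest in Hoxd13, left out, the log2 fold change was 2.87 and the edgeR adjusted p 0.0195. Both RefSeq transcripts of Fut2 had more counts in each STAT6-/- library than in any WT library: the more abundant one held 61.3% to 66.2% of the gene's counts in STAT6-/- and 64.9% to 73.0% in WT.

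The other fucosyltransferases did not pass. Fut1 makes the same linkage as Fut2 and lies near it on chromosome 7, at a distance of 27531 bases. It had 13 to 18 counts in the STAT6-/- libraries and 4 to 14 in WT. The length-scaled values (FPKM, scaled to transcript length and library size) of Fut2 were 390 to 925 times those of Fut1 in STAT6-/- and 55.6 to 111 times in WT. Of this pair, Fut2 thus held nearly all the transcript in both groups. Fut4, which puts fucose on N-acetylglucosamine within chains, stood at 58.8 ± 26.1 against 49.3 ± 8.14 CPM (mean ± SD, n = 3 throughout). Fut8 adds the core fucose of N-glycans and so acts outside O-glycans. Its levels were 135 ± 18.2 and 149 ± 7.15 CPM, with a log2 fold change of -0.14 ± 0.16.

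Chst4 was the second largest rise among the called members. CHST4 sulfates N-acetylglucosamine of O-glycans and is known both from colonic mucus and from high endothelial venules, the lymph node vessels that display sulfated ligands to L-selectin. Chst4 (chromosome 8, 110029075 to 110039401) stood at 108, 75.4 and 40.9 CPM in STAT6-/- and at 16.0, 16.3 and 13.4 CPM in WT. The groups did not overlap, and the STAT6-/- libraries spread far more than the WT ones. Chst4 rose 4.92-fold (log2 fold change 2.30 ± 0.35, edgeR adjusted p = 0.012). The venule gene Glycam1 was at 27.2, 0.47 and 0.529 CPM in STAT6-/- and 7.99 to 13.2 CPM in WT. The addressin Madcam1 lay at 27.8, 3.97 and 6.77 CPM against 1.99 to 3.35 CPM, higher in each STAT6-/- library. The part of these venule genes and of the endothelial markers in the Chst4 values was not tested. Chst2, a related sulfotransferase, was low at 7.97 ± 4.63 against 5.14 ± 0.344 CPM and did not pass.

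The sialyltransferases went both ways, with 2 of 8 tested higher and 1 lower. St6galnac6, which adds a branching sialic acid and is best known for gangliosides and disialyl Lewis a, was the most abundant capping gene by FPKM (340 in STAT6-/- and 153 in WT on average). It stood at 673, 961 and 680 CPM in STAT6-/- against 350, 416 and 325 CPM in WT. St6galnac6 rose 2.12-fold (log2 fold change 1.09 ± 0.22, edgeR adjusted p = 0.0199), and this call was also lost without WT replicate 1. St6galnac4, which puts a sialic acid on sialylated core 1 chains, stood at 39.9, 37.6 and 30.5 CPM against 17.1, 17.5 and 11.6 CPM. St6galnac4 rose 2.34-fold (log2 fold change 1.22 ± 0.21, edgeR adjusted p = 0.0149). In both genes every STAT6-/- library lay above every WT library.

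These 2 genes are neighbours on chromosome 2, with 12 annotated bases between the end of St6galnac4 (32587078 to 32599696) and the start of St6galnac6 (32599709 to 32620809). Reads from transcripts running through the gap could be divided between them, and the level of each is uncertain to that extent. The division of St6galnac4 between its 2 transcripts was uneven in 1 library. The main transcript took 62.7% to 69.7% of the counts in STAT6-/- and 63.3%, 72.6% and 18% in WT replicates 1 to 3, and the gene's total in WT replicate 3 was also the lowest (11.6 CPM).

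St3gal6 was the only member called lower. ST3GAL6 caps galactose of N-acetyllactosamine chains with sialic acid. St3gal6 (chromosome 16, 58469742 to 58524260) stood at 69.8, 113 and 106 CPM in STAT6-/- and at 177, 213 and 206 CPM in WT. Its groups did not overlap, and it fell 2.06-fold (log2 fold change -1.04 ± 0.22, edgeR adjusted p = 0.0207). St3gal6 took 26.2% ± 2.93 of the summed FPKM of all 17 capping genes in WT and 7.65% ± 2.91 in STAT6-/-. Fut2 moved from 3.60% ± 1.21 to 21.8% ± 9.96 of the same sum. In WT more capping transcript was thus from St3gal6 than from Fut2 in each of the 3 libraries, and in each STAT6-/- library more was from Fut2.

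The remaining sialyltransferases did not pass. St6galnac2, which sialylates the first N-acetylgalactosamine of core 1 chains, stood at 13.7, 15.3 and 8.73 CPM against 43.1, 16.4 and 17.5 CPM. The groups did not overlap, but WT replicate 1 alone set most of the difference (log2 fold change -1.03 ± 0.43, edgeR adjusted p = 0.118). St3gal1, which sialylates core 1 galactose, was at 29.6 ± 20.5 against 10.1 ± 1.30 CPM. Its 2 high libraries were STAT6-/- replicates 1 and 3 (47.3 and 34.2 CPM), and replicate 2 (7.15 CPM) lay below WT. T cell markers, 7 genes in all, summed to 110, 17.8 and 42.5 CPM in STAT6-/- replicates 1 to 3, in the order of St3gal1 there. B cell markers had that order too (312, 25.1 and 51.15 CPM). In WT replicates 1 to 3 the T cell sums were 20.6, 22.5 and 19.4 CPM and St3gal1 was at 9.35, 9.31 and 11.6 CPM, not in the same order. The part of these markers in the St3gal1 values was not tested. DESeq2 called St3gal1 (adjusted p = 0.0262), and so did edgeR without STAT6-/- replicate 2 (adjusted p = 0.00308). St6gal1, mainly an enzyme of N-glycans, was at 70.7 ± 38.6 against 42.0 ± 2.83 CPM. St3gal3 and St3gal4, which sialylate galactose at chain ends, were at 45.5 ± 21.7 against 56.6 ± 10.6 and at 8.55 ± 4.58 against 7.49 ± 3.60 CPM. St6galnac1, the enzyme of the sialyl-Tn antigen, had 7 counts in WT replicate 1 and was listed in no other library. Whether its transcript model covers the transcript made in colon was not tested. A gene with no count could still hold up to 3 counts, or 0.153 to 0.175 CPM, a limit for counting error only.

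Of the 2 enzymes that add terminal N-acetylgalactosamine, B4galnt2 was decided by 1 library. B4GALNT2 makes the Sda antigen, a sialylated cap of colonic mucin. B4galnt2 stood at 373, 479 and 51.6 CPM in STAT6-/- and at 136, 141 and 117 CPM in WT. STAT6-/- replicates 1 and 2 lay above all WT libraries and replicate 3 below them. B4galnt2 did not pass (2.30-fold higher on average, edgeR adjusted p = 0.226), but without STAT6-/- replicate 3 its log2 fold change was 1.75 and it passed (edgeR adjusted p = 0.0119). B4galnt3, which forms the LacdiNAc unit, was at 43.6 ± 19.9 against 40.1 ± 5.41 CPM.

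**Figure D2:**
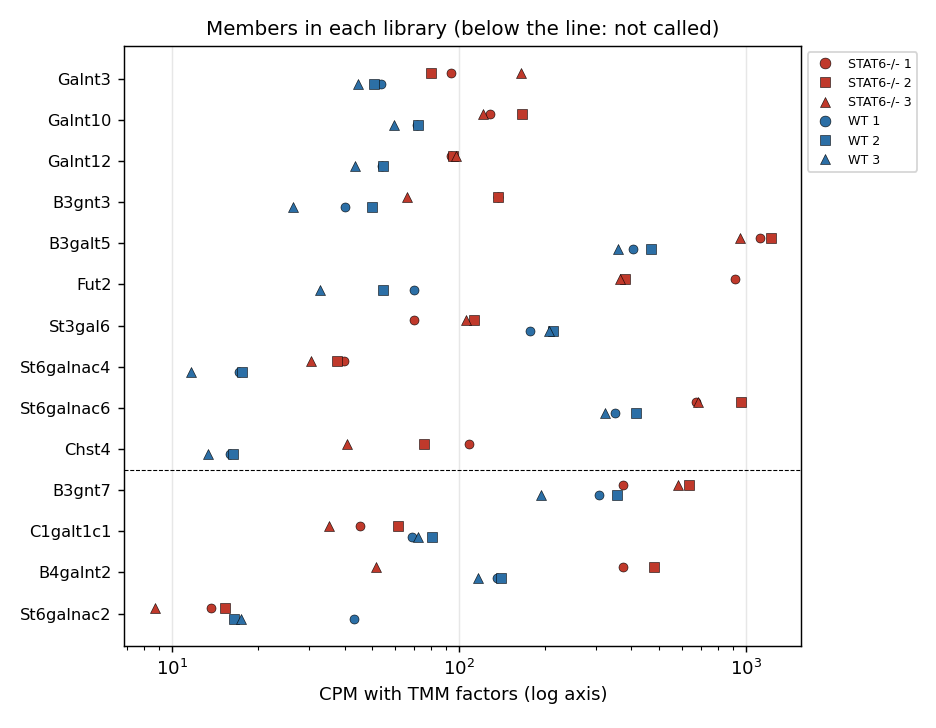
CPM on a log axis in each of the 6 libraries (shape gives the replicate, colour the genotype) for the 10 called members and for 4 others that were not called. Above the dashed line no STAT6-/- point overlaps the WT points; below it, B4galnt2 has 2 STAT6-/- libraries above WT and 1 below.

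Extension was led by B3galt5 and B3gnt7, which by FPKM were the most abundant members of the step. B3GALT5 puts galactose on N-acetylglucosamine to make type 1 chains. Of its 3 promoter windows the one printed above held a match. B3galt5 (chromosome 16, 96235801 to 96319859) stood at 1125, 1223 and 954 CPM in STAT6-/- and at 404, 468 and 359 CPM in WT. The groups lay far apart, and B3galt5 rose 2.68-fold (log2 fold change 1.42 ± 0.20, edgeR adjusted p = 0.011). B3gnt3, which extends core 1 with N-acetylglucosamine, stood at 137, 137 and 66.1 CPM against 40.2, 49.8 and 26.4 CPM. B3gnt3 rose 2.92-fold (log2 fold change 1.55 ± 0.35, edgeR adjusted p = 0.0253) with groups that did not overlap. The call of B3gnt3 was also lost without STAT6-/- replicate 1 and without WT replicate 1 (edgeR adjusted p = 0.0596 and 0.0692).

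B3gnt7, an enzyme of poly-N-acetyllactosamine and keratan sulfate chains, stood at 375, 635 and 580 CPM against 307, 357 and 193 CPM. All STAT6-/- libraries lay above WT, but B3gnt7 did not pass (log2 fold change 0.89 ± 0.30, edgeR adjusted p = 0.0707). It passed with DESeq2, with library size as the only scaling and with limma on log2 FPKM. B4galt1, which makes type 2 chains, was at 370 ± 105 against 252 ± 79.4 CPM. B3gnt2, the main enzyme of poly-N-acetyllactosamine, and B3gnt5, which starts lacto-series glycolipids, were on average lower in STAT6-/- (94.7 ± 27.8 against 125 ± 8.61 and 154 ± 25.4 against 193 ± 10.1 CPM). Neither passed. The summed FPKM of the 6 extension genes was 607, 701 and 601 in STAT6-/- and 368, 371 and 289 in WT, and that of the 6 core genes was 90.3, 108 and 97.8 against 107, 110 and 116.

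The core enzymes gave no call. C1galt1, the core 1 synthase, was at 82.3 ± 17.6 against 71.3 ± 5.29 CPM. C1galt1c1, also called Cosmc, is the chaperone without which the core 1 synthase is lost, and it is the only member on the X chromosome. C1galt1c1 was the most abundant core gene by FPKM over all 6 libraries and in WT, while in STAT6-/- C1galt1 was on average above it (39.9 against 32.2 FPKM). It stood at 45.2, 61.5 and 35.2 CPM in STAT6-/- and 68.5, 80.7 and 72.0 CPM in WT. Its groups did not overlap (log2 fold change -0.64 ± 0.21, edgeR adjusted p = 0.0686). Per library, the FPKM of C1galt1c1 was 0.478 to 1.14 times that of C1galt1 in STAT6-/- and 1.24 to 1.62 times in WT.

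The branching enzymes of the core step did not pass. Gcnt3, the mucin-type enzyme of core 2 and core 4, was at 46.3, 109 and 60.3 CPM in STAT6-/- against 92.3, 114 and 117 CPM in WT. Gcnt1, the core 2 enzyme of leukocytes and other cells, for which 1 of 3 promoter windows is printed above, was at 36.1 ± 11.1 against 23.6 ± 3.52 CPM. The FPKM of Gcnt3 was 1.33 to 4.26 times that of Gcnt1 in STAT6-/- and 4.75 to 5.03 times in WT, a ratio given as a description with no test. Gcnt4, a further core 2 enzyme, stood at 4.29, 1.62 and 20.1 CPM against 0.931 to 1.72 CPM. STAT6-/- replicate 3 set most of this difference, and edgeR gave it an adjusted p of 0.0646, DESeq2 0.00358. B3gnt6, the core 3 synthase known from the mouse colon, had 5 to 19 counts in STAT6-/- and 5 to 9 in WT, and was too low to be tested. As for St6galnac1, the cover of its transcript model was not tested, so these low counts are not read as low expression.

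**Figure D3:**
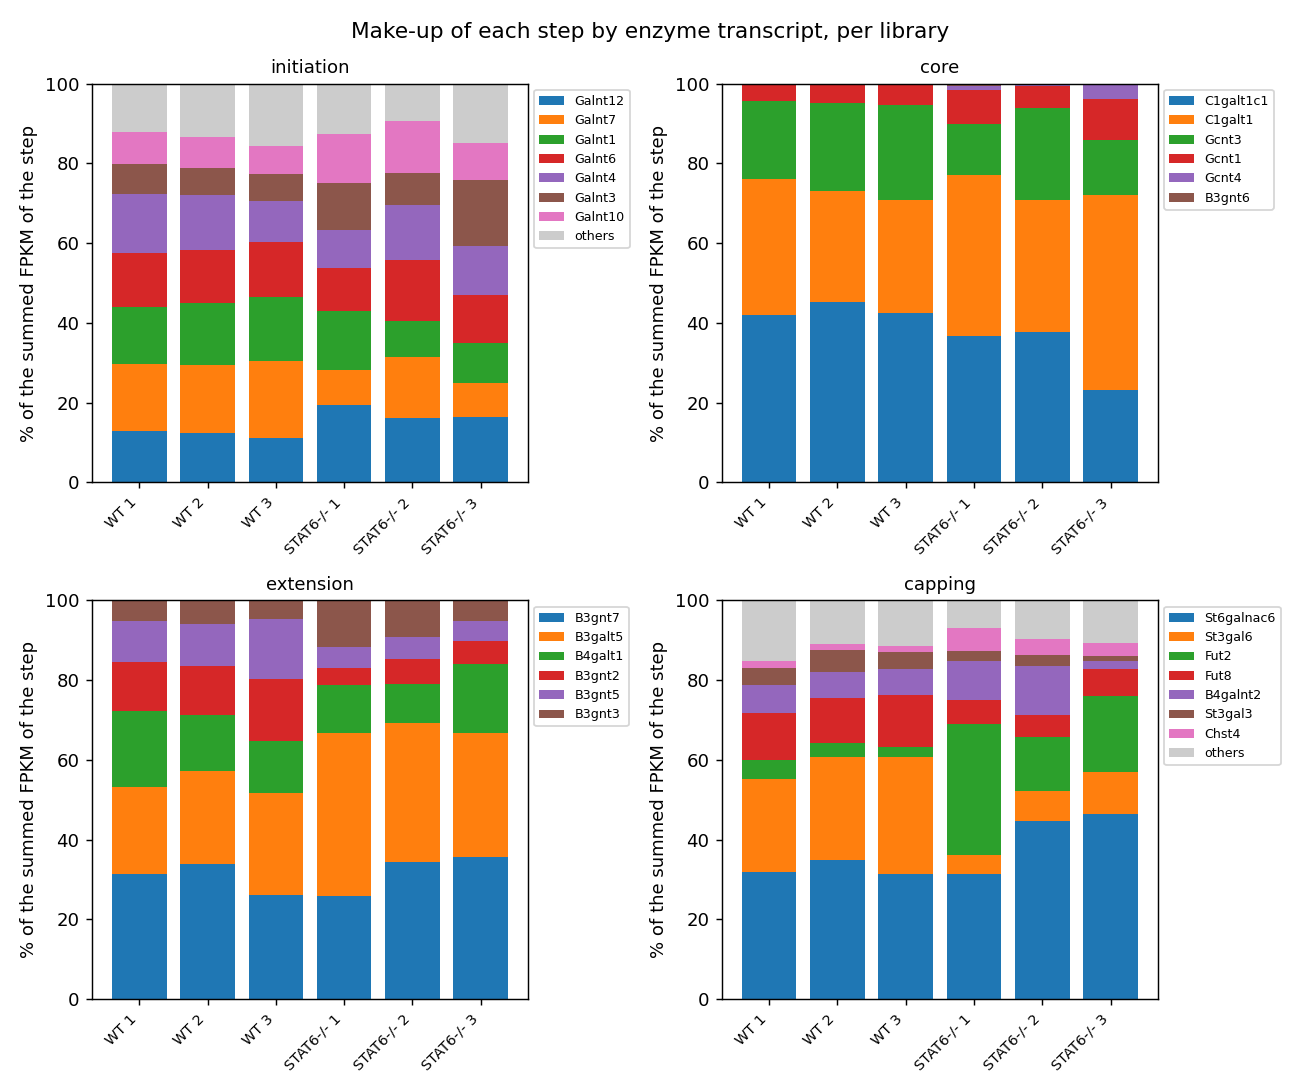
Share of each step's summed FPKM (y axis, percent) taken by each member in the 6 libraries, 1 panel per step; grey holds members outside the 7 largest. In the capping panel the green Fut2 part widens from WT to STAT6-/- and the orange St3gal6 part narrows; in the extension panel the orange B3galt5 part goes from 23.6% to 35.6% on average.

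In initiation 3 genes rose by 1.89-fold to 2.28-fold. Galnt12, an enzyme abundant in colon and the most abundant of the 10 here by FPKM, stood at 93.6, 95.4 and 97.5 CPM in STAT6-/- and 53.8, 54.4 and 43.6 CPM in WT. The 3 STAT6-/- values lay closer together than those of any other called member, and the log2 fold change of Galnt12 was 0.92 ± 0.14 (edgeR adjusted p = 0.0119). Galnt10, which prefers peptides that already carry a sugar, stood at 129, 166 and 121 CPM against 71.6, 72.2 and 59.3 CPM. Galnt10 rose 2.05-fold (log2 fold change 1.03 ± 0.18, edgeR adjusted p = 0.0143). Galnt3, known for its action on the hormone FGF23, stood at 93.7, 79.9 and 165 CPM against 53.4, 50.6 and 44.6 CPM. Galnt3 rose 2.28-fold (log2 fold change 1.19 ± 0.28, edgeR adjusted p = 0.0286), and its call was also lost without WT replicate 1 (0.0711) and with a replicate block (0.0524).

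The other 7 initiation genes did not pass, with log2 fold changes from -0.32 to 0.73. Galnt2, a widely expressed initiator, was at 63.9, 45.7 and 112 CPM in STAT6-/- and 44.6 ± 2.53 CPM in WT, so that STAT6-/- replicate 2 lay within the WT range. Galnt6 and Galnt4, the latter within the span of Poc1b, were at 186 ± 51.8 against 147 ± 5.84 and at 157 ± 45.5 against 127 ± 29.7 CPM. Galnt7, which like Galnt10 acts on glycosylated peptides, was at 123 ± 51.5 against 147 ± 5.53 CPM. Galnt1, also widely expressed, was at 109 ± 16.6 against 114 ± 6.41 CPM and Galnt5 at 17.5 ± 2.76 against 18.7 ± 2.92 CPM. Galnt11 was at 19.1 ± 0.767 against 23.8 ± 2.63 CPM. By FPKM no GALNT held more than 17.8% of the step on average in WT, so initiation was spread over many enzymes, with Galnt7 first in WT and Galnt12 first in STAT6-/- (17.3%).

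Dividing each called member by an epithelial gene of the same library, a step added after the data were seen, gave a different count with each gene. All 10 kept groups that did not overlap when divided by Epcam, 4 when divided by the adhesion gene Cdh1 (B3galt5, Fut2, St3gal6 and Chst4), 3 by the keratin gene Krt8 and 2 by Vil1. The share of all genes apart after each division was not counted. Each count also depends on how the divisor itself differed between the genotypes. The mean ratio of Galnt3 in STAT6-/- was 2.14 (Epcam), 1.41 (Cdh1) and 1.27 (Krt8) times that of WT. Undivided, all 10 had groups apart, which their choice by the test made likely. The 46.5% of all genes with groups apart includes genes not called, so it is no like comparison for the 10. Fut2 remained apart with all 4 divisors, and its mean ratio in STAT6-/- was 4.85 (Vil1) to 10.98 (Epcam) times that of WT. St3gal6 was apart with all 4 too, at 2.24 to 4.73 times lower, against 2.06-fold lower undivided. Dividing a gene that fell by genes level or higher in STAT6-/- tends to widen its gap. The division therefore says little about St3gal6. Relative to Vil1, Galnt3, Galnt10, Galnt12 and St6galnac6 had mean ratios 0.954, 0.920, 0.835 and 0.959 times those of WT, so these genes and Vil1 differed between the genotypes by like amounts.

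**Figure D4:**
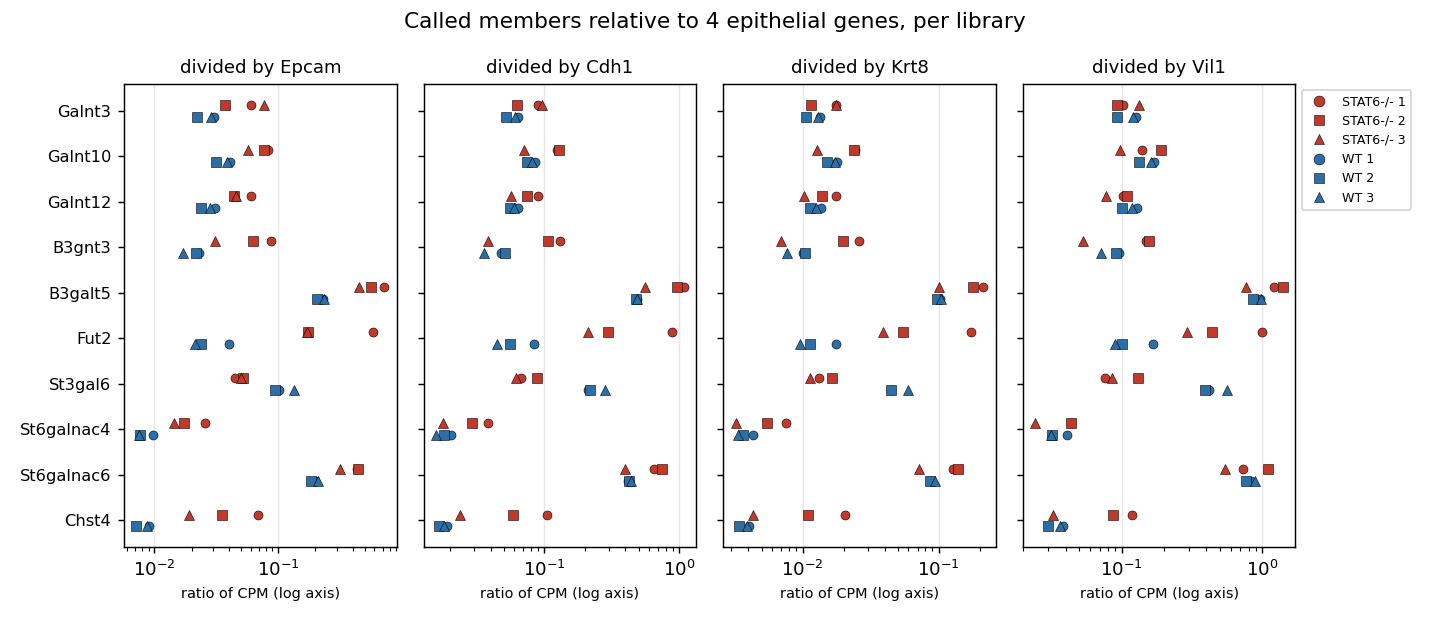
Ratio of CPM of the 10 called members to Epcam, Cdh1, Krt8 and Vil1 in each library (log axes, shape for replicate, colour for genotype). The red and blue points of Fut2 and St3gal6 are apart in all 4 panels, and those of the 3 Galnt genes are apart only in the Epcam panel.

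Genes that make and carry the activated sugars changed in both directions. Of 30 tested and reported, 6 rose and 2 fell (26.7%, beside the 22.9% of all genes). All 8 are named, a choice made after their values were seen. Those that make or carry fucose and its precursor are given first. Slc35c1, the Golgi carrier of GDP-fucose, rose 2.70-fold to 240 ± 23.2 CPM, and Gmds, the first enzyme from GDP-mannose to GDP-fucose, rose 2.52-fold to 281 ± 39.2 CPM. Gmppb, which makes GDP-mannose, stood at 105, 68.3 and 124 CPM in STAT6-/- against 23.9, 25.4 and 20.5 CPM in WT. Every STAT6-/- library lay above WT, and Gmppb rose 4.25-fold (log2 fold change 2.09 ± 0.24, edgeR adjusted p = 0.00965).

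In the salvage of free fucose, Fcsk rose 1.53-fold and Fpgt, the next enzyme, fell 1.65-fold. Gfus, which completes GDP-fucose, was at 108 ± 23.2 against 154 ± 10.4 CPM (edgeR adjusted p = 0.0836). Nans, an enzyme of sialic acid synthesis and the most abundant of the list by FPKM, rose by a log2 fold change of 0.59 ± 0.17, and the X-linked Slc35a2, the Golgi carrier of UDP-galactose, rose 1.85-fold. Gnpnat1, an acetyltransferase of the hexosamine pathway, stood at 114 ± 12.5 CPM in STAT6-/- and 259 ± 30.3 CPM in WT and fell 2.27-fold (edgeR adjusted p = 0.0111).

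**Figure D5:**
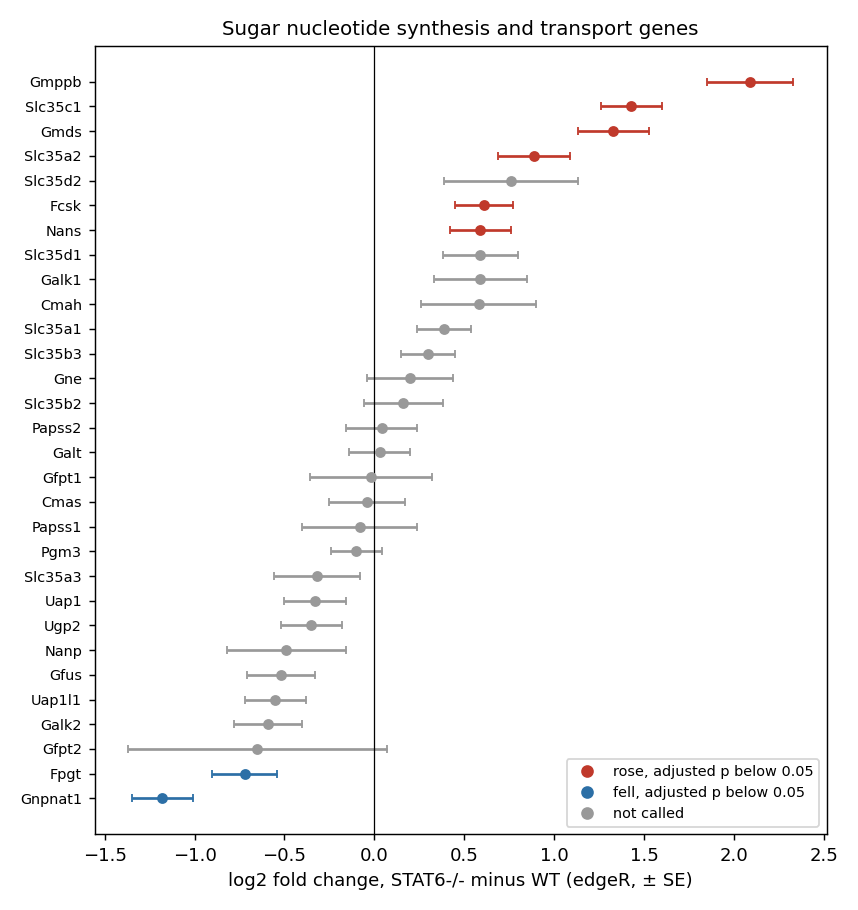
Log2 fold change (STAT6-/- minus WT) with its standard error for 30 genes of sugar nucleotide synthesis and Golgi transport, coloured by the edgeR call. Gmppb (2.09), Slc35c1 (1.43) and Gmds (1.33) are at the top, and Gnpnat1 (-1.18) is at the bottom.

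Related enzymes outside the 39 gave few calls. Of 31 other glycosyltransferases tested, 2 rose (6.45%, beside 22.9% of all genes): B4galt5 by 1.93-fold, to 93.9 ± 26.9 CPM, and B4galt3 to 33.0 ± 4.48 from 22.0 ± 1.79 CPM, both galactosyltransferases. St3gal2, a further core 1 sialyltransferase, had a log2 fold change of -0.85 (edgeR adjusted p = 0.0723). Of 19 other sulfotransferases tested 3 were called (15.8%). Ndst1 of heparan sulfate (2.99-fold) and Tpst2 of protein tyrosine (1.66-fold) rose and Gal3st4 fell 2.07-fold. Gal3st1, the most abundant of them by FPKM, had a log2 fold change of -0.20 ± 0.39.

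Among the mucins that carry these glycans 3 of 5 tested rose, beside 11.4% of all genes: Muc4 (22.7-fold), Muc20 (3.37-fold) and Muc1 (1.79-fold). Muc2, the secreted mucin of the mucus layer, stood at 3286, 3940 and 1961 CPM in STAT6-/- against 1817, 1702 and 1699 CPM in WT. The groups of Muc2 did not overlap, but it did not pass (log2 fold change 0.82 ± 0.29, edgeR adjusted p = 0.0835). Of the 5 tested, Muc2 is secreted and the others are membrane mucins. Muc13, the most abundant by FPKM, did not pass and was at 5546 ± 1285 against 3660 ± 890.0 CPM.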

How the data were processed

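Per the labels, colon RNA of 3 STAT6-/- and 3 WT samples was sequenced. The authors deposited expected counts (estimated reads per RefSeq transcript, not normalized) and FPKM values (scaled to length and depth), per the file headers. The submitters' processing notes name Bowtie2 2.2.5, RSEM 1.2.12 and mm10. Transcripts below an FPKM of 0.01 are not listed and were taken as 0. Of 28238 transcripts, 27986 took a gene name from RefSeq (GRCm38.p6), 149 from GENCODE M21, and 103 (0.167% of counts) stayed separate. Expected counts were summed per gene and rounded. Of the 19949 genes, 15066 passed filterByExpr.

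edgeR 4.0.16 (R 4.3.3) compared the genotypes with its robust quasi-likelihood F test, TMM factors and Benjamini-Hochberg adjustment over all tested genes, with a threshold of 0.05. The standard error is the log2 fold change over the square root of F. CPM are means ± SD, and FPKM was used to compare genes. On simulated data with 200 of 14951 genes changed, the fit recovered 12 of 100 2-fold and 93 of 100 4-fold changes, with 2 false calls among 107. Thus 2-fold changes were mostly missed there. The simulation gave every gene the same dispersion (spread between samples beyond counting error) of 0.102. In the data the spread differs by gene and 22.9% of genes were called, so these rates need not hold for the members.

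Members, lists and tests were chosen with earlier results of these data known. Per-library values were given for called members, for the most abundant member of each step and cap class, and for members with groups apart and a log2 fold change of at least 1; the others named with per-library values (Gcnt3, Gcnt4, St3gal1 and Galnt2) were chosen after their values were seen. Of each pathway list the 3 genes of smallest p and the most abundant one were to be named, and 1 gene of the sugar nucleotide list is not reported here. Alternatives were RLE, upper quartile or library size scaling, no filter or 1 CPM in 3 libraries, DESeq2 1.42.0, limma-voom and limma (3.58.1) on log2 FPKM plus 1 or 0.1, no robust estimation, a replicate block, a fit without the 3 genes that held over 1% of a library, and fits without each library in turn. Figures used matplotlib 3.10.9.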

Additional observations from a re-analysis of the deposited data

How the results depend on the processing

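All 10 called members kept their direction in all 18 alternatives, and in the 12 that keep all libraries 9 of them kept their call; the exception was Galnt3 with the replicate block. Between 8 and 12 members were higher and 1 lower in those 12, with 8 and 1 under the replicate block. Deviations from the group means correlated at 0.023, 0.0445 and 0.134 between same-numbered libraries of the 2 genotypes. STAT6-/- replicates 1 and 3 correlated best with the WT library of their own number, and replicate 2 with WT replicate 1 (0.0544). The labels do not say what a shared number marks, so the numbers were not taken as pairs. With 1 library left out, 0 to 14 members were higher and 0 to 4 lower. Over all genes, 1718 were higher and 1731 lower, and 2697 and 2356 with DESeq2. The counts were 21 and 10 without WT replicate 2, 12 and 6 without WT replicate 3, and 656 and 751 without WT replicate 1. Without STAT6-/- replicate 2 they were 2750 and 2440.

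Members that were not called and crossed 0 ran as follows with 1 library left out (log2): Galnt1 from -0.16 to 0.06, Galnt5 from -0.20 to 0.05, B4galnt3 from -0.16 to 0.49, Fut1 from -0.11 to 0.57, Fut4 from 0.00 to 0.61, St3gal3 from -0.55 to 0.08 and St3gal4 from -0.08 to 0.63. B4galnt3 was at 0.00 with limma-voom. The cause was not tested in any of these. B3gnt6, St6galnac1 and Fut1 had too few counts for a difference to be detectable.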

Other observations

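B4galnt1, a ganglioside enzyme that lies 0.471 Mb from Stat6 on chromosome 10, was at 62.1, 8.04 and 24.0 CPM in STAT6-/- against 5.90 to 11.2 CPM and did not pass (edgeR adjusted p = 0.0805). The only member on chromosome 10, Galnt4, lies 28.5 Mb from Stat6.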
